A study of Arabidopsis thaliana with 4 samples.

Results

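The genes described here are 9 of the 33557 genes in the table, chosen by locus identifier: LTP3 (AT5G59320) and LTP4 (AT5G59310) on chromosome 5, and 7 genes of a tandem cluster on chromosome 4 that begins with AZI1 (AT4G12470) and EARLI1 (AT4G12480). The others of the cluster carry no symbol in the annotation used here and are AT4G12490, AT4G12500, AT4G12510, AT4G12520 and AT4G12545. All 9 were found. They were proposed with the FPKM differences between these libraries already known, so their values are given as a description.

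The libraries are poly(A)+ RNA of Arabidopsis thaliana, ecotype Col-0, kept for 7 days on agar medium lacking phosphate. Wild-type Col-0, the SALK T-DNA insertion lines hho2-1 and phr1 and a double mutant, hho2phr1, gave 1 library each. HHO2 and PHR1 encode transcription factors, and PHR1 activates many genes of phosphate starvation. The labels give neither the organ harvested, nor the age at harvest, nor how many plants were pooled, and no plant with phosphate is among the groups. With 1 library per genotype there is no spread between replicates, so no test was possible and every difference below is one between 2 libraries.

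Plant lipid transfer proteins are small secreted proteins whose fold is held by 8 cysteines in a fixed order around a pocket that takes up fatty acids and other lipids. LTP3 and LTP4 belong to the type 1 class, which in Arabidopsis is prominent in the epidermis and has been tied to cuticle, drought, cold and abscisic acid. AZI1 and EARLI1 are hybrid proline-rich proteins, in which a proline-rich stretch precedes the 8-cysteine domain; AZI1 is required for the defence priming set off by azelaic acid in systemic acquired resistance, and EARLI1 is known as a gene induced by cold and by aluminium.

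The reading frames show both architectures. All 9 carry the order of cysteine codons of the family, with a pair side by side and, farther on, a pair separated by 1 codon. In AZI1, EARLI1, AT4G12490 and AT4G12500, between 24.7% and 27.6% of the codons ahead of that domain code for proline. The share was 8.89% in AT4G12510 and AT4G12520, 3.70% in AT4G12545 and 0% in LTP3 and LTP4. The coding stretch from the first to the last cysteine of the domain is given for LTP4, the member with the widest range of levels, for AZI1, the most abundant, and for AT4G12490 and AT4G12500, a closely similar pair with different levels. Letters are from RefSeq's TAIR10.1 assembly, 5′ to 3′ along the coding strand, and capitals mark the cysteine codons.
LTP4, chr5:23925449-23925694, minus strand: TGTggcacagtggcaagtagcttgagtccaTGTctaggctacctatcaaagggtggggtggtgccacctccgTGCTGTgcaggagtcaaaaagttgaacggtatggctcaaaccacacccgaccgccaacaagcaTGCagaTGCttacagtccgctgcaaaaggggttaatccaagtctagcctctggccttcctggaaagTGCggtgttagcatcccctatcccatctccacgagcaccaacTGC
AZI1, chr4:7401377-7401625, minus strand: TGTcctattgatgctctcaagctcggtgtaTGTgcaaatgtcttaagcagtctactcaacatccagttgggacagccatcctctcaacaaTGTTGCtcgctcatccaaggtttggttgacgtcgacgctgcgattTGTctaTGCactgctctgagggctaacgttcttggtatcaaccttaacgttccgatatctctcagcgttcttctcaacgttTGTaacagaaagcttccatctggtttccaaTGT
AT4G12490, chr4:7409836-7410084, minus strand: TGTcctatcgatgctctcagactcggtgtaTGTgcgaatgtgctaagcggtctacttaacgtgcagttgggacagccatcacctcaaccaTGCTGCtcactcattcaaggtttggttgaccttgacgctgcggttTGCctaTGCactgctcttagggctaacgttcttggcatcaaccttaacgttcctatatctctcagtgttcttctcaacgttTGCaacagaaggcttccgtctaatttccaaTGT
AT4G12500, chr4:7414375-7414623, minus strand: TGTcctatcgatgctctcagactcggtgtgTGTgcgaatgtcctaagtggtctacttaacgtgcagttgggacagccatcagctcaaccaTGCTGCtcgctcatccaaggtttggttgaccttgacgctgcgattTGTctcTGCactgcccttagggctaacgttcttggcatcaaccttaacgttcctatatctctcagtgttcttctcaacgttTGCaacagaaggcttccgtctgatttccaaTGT

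Over the whole reading frame AT4G12490 and AT4G12500 were 90.3% identical, LTP3 and LTP4 84.5%, and AZI1 and EARLI1 84.1%. AT4G12510 and AT4G12520 were 99.5% identical, and their transcripts shared an unbroken run of 441 bases. Of all stretches of 50 bases in the transcripts, 51.8% in AT4G12510 and 58.1% in AT4G12520 occurred elsewhere in the nuclear genome, so the level of either depends on how the authors' tool divided shared reads. That share was 6.78% in AT4G12490, 5.45% in AT4G12500 and 11.9% in AT4G12545, and 0% in LTP3, LTP4, AZI1 and EARLI1. The reference also places a gene on the opposite strand over EARLI1, AT4G12490 and AT4G12545. Among the genes of the region with expression values, no other entry overlapped these members. Whether the authors' counting used strand is not given in the sources used here. Reads from the opposite-strand genes therefore cannot be told apart from those of the members.

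The chromosome 4 members lie within 33.8 kilobases, from 7401087 to 7434858 in TAIR10.1 coordinates. The first 6, from AZI1 to AT4G12520, are single-exon genes on the minus strand separated by 2112 to 4113 bases. AT4G12545, also of 1 exon, lies 12370 bases beyond on the plus strand. LTP4 (chromosome 5, 23924990 to 23925957) and LTP3 (23928954 to 23929816) have 2 exons each and stand head to head with 2996 bases between them.

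The first check is of the genotypes. Levels are in FPKM, the authors' fragment counts scaled to transcript length and library size. Col-0 had 37.7 FPKM of PHR1, hho2-1 43.2, phr1 7.54 and hho2phr1 6.50. Col-0 had 90.7 FPKM of HHO2, phr1 81.2, hho2-1 59.8 and hho2phr1 51.8, so transcript of both genes remained in their mutants. The estimated library sizes lay between 39550000 fragments (phr1) and 48050000 (Col-0). All 8 root markers and all 8 green shoot markers were above 1 FPKM in every library. The summed level of the root markers ranged from 4574 to 5814 FPKM over the libraries.

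LTP4 had the widest range of the 9, 18.5-fold on FPKM. It stood at 1.15 FPKM in hho2-1, 2.15 in Col-0, 9.98 in phr1 and 21.3 in hho2phr1, from about 22, 44, 168 and 369 estimated fragments. The authors' 95% intervals were 0.426 to 1.87, 1.02 to 3.27, 6.58 to 13.4 and 15.2 to 27.3 in that order. Both libraries with the phr1 allele were thus above both with intact PHR1, with all intervals apart between the 2 pairs, and hho2phr1 was above phr1. A lower level in such a bulk library can come from fewer cells of a type or from less RNA per cell, and these cannot be told apart.

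LTP3 followed the same order at a smaller range. It was at 4.15 FPKM in hho2-1, 5.85 in Col-0, 11.7 in phr1 and 25.5 in hho2phr1. The intervals of Col-0 (3.61 to 8.08) and phr1 (7.96 to 15.4) overlapped narrowly, while that of hho2phr1 (18.7 to 32.3) lay above the other 3. LTP4 was at 0.368 and 0.277 times the level of LTP3 in Col-0 and hho2-1, and at 0.855 and 0.835 times in phr1 and hho2phr1. Summed, the pair was at 8.0 FPKM in Col-0, 5.30 in hho2-1, 21.6 in phr1 and 46.8 in hho2phr1.

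**Figure D1:**
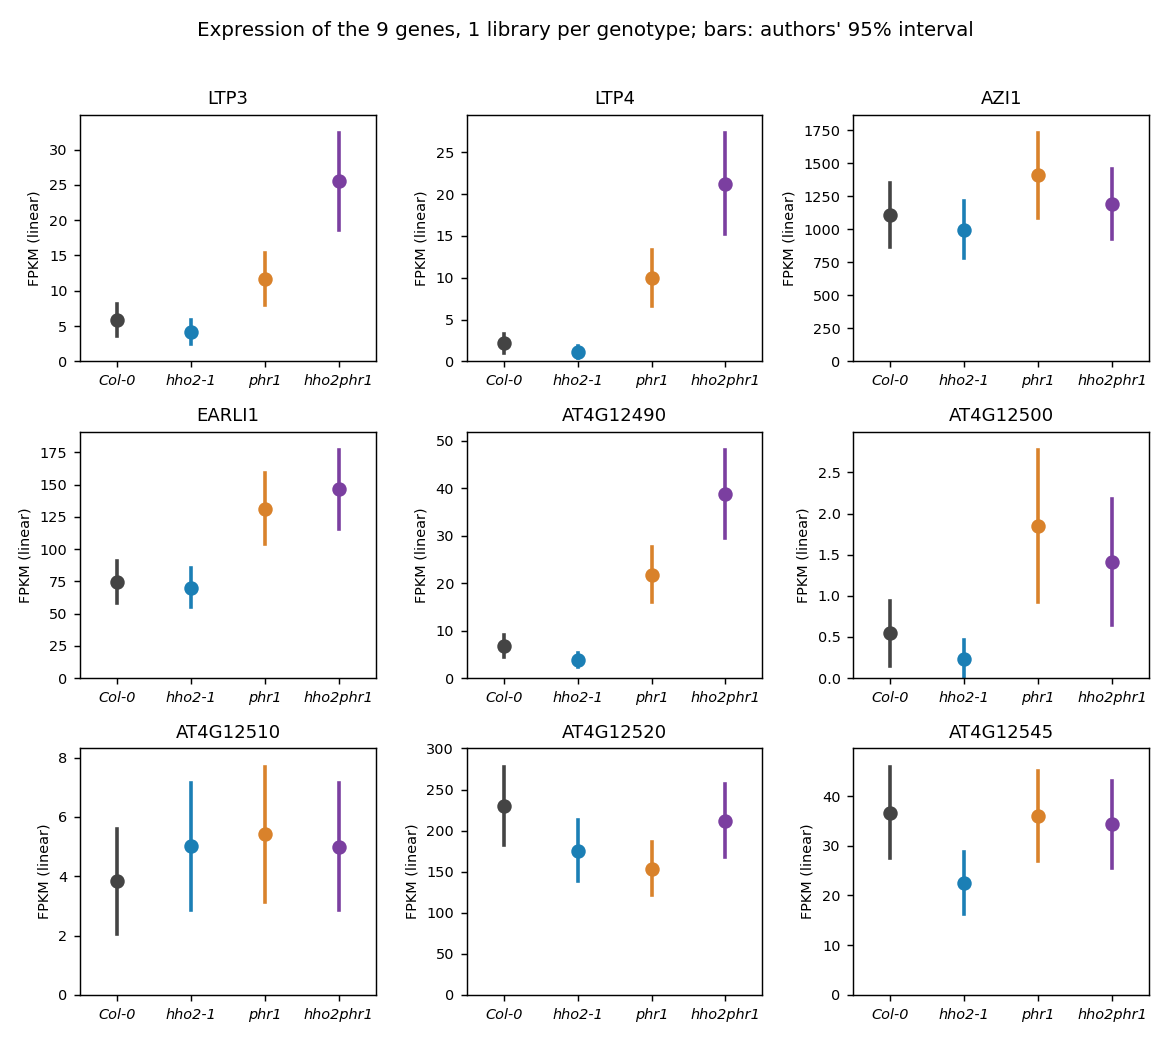
FPKM of each of the 9 genes (vertical axes, linear, from 0) in the 4 genotypes (horizontal axes); points are the single library of each genotype and bars the authors' 95% interval. LTP3, LTP4 and AT4G12490 are lowest in hho2-1 and highest in hho2phr1, while AZI1 stays between 999 and 1410 FPKM.

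AZI1 was the most abundant member in every library, above at least 99.8% of all genes in the table. It was at 1110 FPKM in Col-0, 999 in hho2-1, 1410 in phr1 and 1192 in hho2phr1. Its intervals overlapped among all 4 libraries, the lowest bound being 781 and the highest 1730. AZI1 alone made up 73.1% to 80.1% of the summed FPKM of the 7 chromosome 4 members, and so the sum differed little, between 1276 and 1760.

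EARLI1 was higher in both libraries with the phr1 allele. Col-0 had 74.7 FPKM, hho2-1 70.1, phr1 131 and hho2phr1 146. The intervals of the first 2, whose highest bound was 91.0, did not overlap those of the other 2, whose lowest was 104. Relative to AZI1 its level went from 6.73% in Col-0 and 7.02% in hho2-1 to 9.32% in phr1 and 12.3% in hho2phr1.

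AT4G12490, annotated as a member of the bifunctional inhibitor and lipid transfer superfamily, had the second widest range, 10.2-fold. It was at 3.82 FPKM in hho2-1, 6.76 in Col-0, 21.8 in phr1 and 38.8 in hho2phr1, from about 100, 189, 502 and 920 estimated fragments. Its intervals of 2.26 to 5.38 and 4.41 to 9.11 lay below those of 16 to 27.6 in phr1 and 29.6 to 48.1 in hho2phr1, and the last 2 were apart as well. Its level exceeded that of 49.9% of all genes in hho2-1 and of 86.3% in hho2phr1.

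AT4G12500 was the lowest member in every library. Its levels were 0.232 FPKM in hho2-1, 0.544 in Col-0, 1.41 in hho2phr1 and 1.85 in phr1. These values rest on about 6, 15, 33 and 42 estimated fragments. The interval of phr1 (0.927 to 2.78) overlapped that of Col-0 (0.148 to 0.939), while that of hho2phr1 (0.651 to 2.17) was apart from that of hho2-1 (0.00414 to 0.461). AT4G12500 had FPKM of at least 1 in libraries with the phr1 allele and in no other, so it entered comparisons through the library in which it was high.

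The remaining 3 members did not share this order. AT4G12510 lay between 3.83 and 5.42 FPKM and its intervals overlapped throughout. Its near-copy AT4G12520 was at 230.0 FPKM in Col-0, 176 in hho2-1, 154 in phr1 and 212 in hho2phr1, with intervals that overlapped for every pair of libraries compared. AT4G12545 was at 36.7 FPKM in Col-0, 36 in phr1 and 34.3 in hho2phr1, and at 22.5 in hho2-1, with overlapping intervals (16.3 to 28.7 in hho2-1, 27.5 to 45.9 in Col-0).

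By level in Col-0 the order was AZI1, AT4G12520, EARLI1, AT4G12545, AT4G12490, LTP3, AT4G12510, LTP4 and AT4G12500. The intervals of AT4G12490, LTP3 and AT4G12510 overlapped from one to the next, as did those of AT4G12510 and LTP4. In hho2phr1 AT4G12490 stood above AT4G12545, with overlapping intervals, and LTP3 and LTP4 stood above AT4G12510. FPKM is per length, so these levels can be set beside each other.

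For the comparisons, a difference is that of log2(FPKM + 1) between 2 libraries, which understates the fold of low genes, and a gene was called at a difference of at least 1. A gene entered a comparison when 1 or both of its FPKM values reached 1.

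phr1 against Col-0 shows the phr1 allele where HHO2 was intact. LTP4 differed by 1.80 and AT4G12490 by 1.56, both with intervals apart. These were 2 of 9 members called higher, where 0.773% of all genes compared were; with intervals apart as well, 2 of 9 members and 0.423% of all genes were. LTP3 differed by 0.89, AT4G12500 by 0.88 and EARLI1 by 0.81. The median of the 9 was 0.81, and that of all 20323 genes compared was -0.002. No member was called lower (0.576% of all genes, 0.217% with intervals apart), AT4G12520 being the lowest at -0.58.

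hho2phr1 against hho2-1 shows the same allele where HHO2 was reduced, and the differences of LTP4 (3.37), AT4G12490 (3.05) and LTP3 (2.36) were larger. EARLI1 differed by 1.05. These 4 of 9 members were called higher, all with intervals apart, against 1.27% of all genes at that size and 0.782% with intervals apart. The EARLI1 call rests on the scaling: with libraries scaled to equal sums without the most abundant gene it was at 0.97, and 3 members were called. No member was called lower (0.719% of all genes, 0.347% with intervals apart). AT4G12500 was just under at 0.97, and AT4G12510 was at 0.00. The median was 0.97, against 0.005 over 20456 genes. That median is the value of AT4G12500, which entered this comparison through hho2phr1, the library in which it was higher. With a pseudocount of 5 the median was 0.51. By size, LTP4 ranked 16, AT4G12490 ranked 20 and LTP3 ranked 35 from the highest of all genes compared.

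hho2-1 against Col-0 shows the hho2 allele where PHR1 was intact. Of 8 members compared, 7 were below Col-0 and the median was -0.40, where 50.3% of all genes were above Col-0 and their median was 0.001. AT4G12490 was at -0.69, AT4G12545 at -0.68, LTP4 at -0.55 and LTP3 at -0.41. None of the 8 reached the 2-fold size in either direction, which 0.418% of all genes did as higher (0.0836% with intervals apart) and 0.462% as lower (0.0885% with intervals apart). Every pair of the members' intervals overlapped. AT4G12510 was the exception in sign, at 0.32.

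hho2phr1 against phr1 shows the hho2 allele where PHR1 was reduced. LTP3 was higher by 1.06 and LTP4 by 1.02, and these 2 of 9 were called, against 0.634% of all genes, or 0.251% with intervals apart. AT4G12490 was higher by 0.80, and for all 3 the intervals were apart. AZI1 was at -0.24, EARLI1 at 0.15 and AT4G12520 at 0.46, with overlapping intervals, and no member was called lower (0.472% of all genes, 0.133% with intervals apart). Both calls lie close to the threshold, and with a pseudocount of 5 in place of 1 the count was 0.

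hho2phr1 against Col-0 holds both alleles. LTP4 differed by 2.82, AT4G12490 by 2.36 and LTP3 by 1.95, which made 3 of 9 called higher against 1.26% of all genes. All 3 had intervals apart, as 0.799% of all genes had at that size. EARLI1 was at 0.96, just short of a call, with intervals apart as well. The remaining 5 lay between -0.11 and 0.64, and none was called lower (0.647% of all genes, 0.299% with intervals apart). The comparisons named here share libraries, so their values are not independent of each other.

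**Figure D2:**
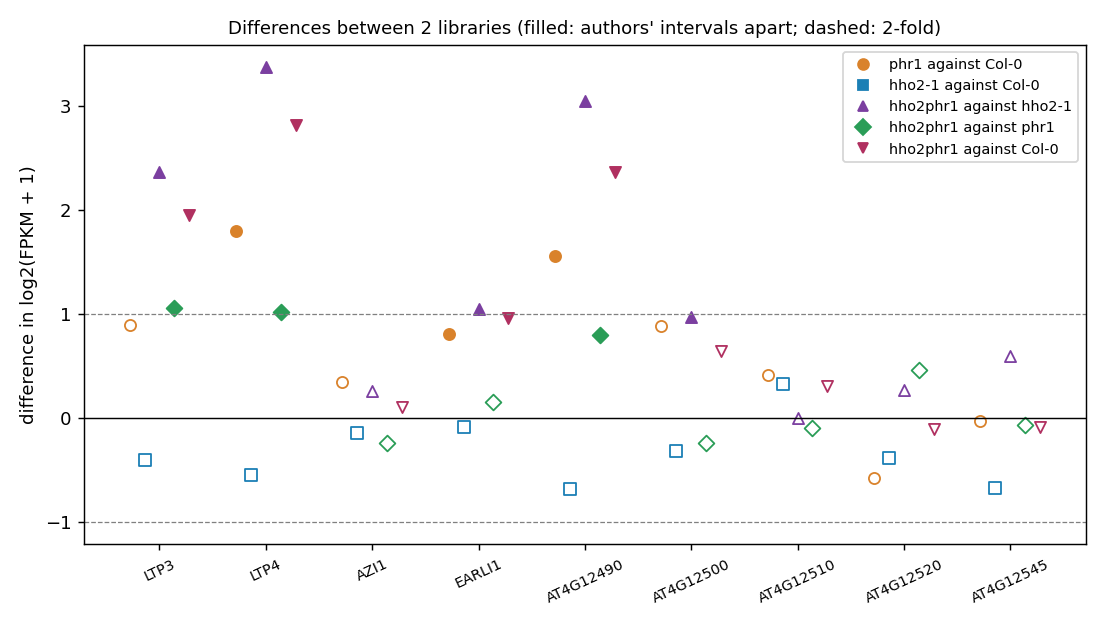
Difference in log2(FPKM + 1) (vertical axis) of each gene (horizontal axis) in the 5 comparisons of 2 libraries, marked by shape and colour; filled points have authors' intervals that do not overlap and dashed lines mark 2-fold. LTP4 reaches 3.37 and AT4G12490 3.05 in hho2phr1 against hho2-1, and no open or filled point lies below -1.

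The hho2 allele went with lower levels of LTP3, LTP4 and AT4G12490 beside intact PHR1, where their intervals overlapped. It went with higher levels in phr1, where their intervals were apart. The second difference minus the first was 1.57 for LTP4, 1.49 for AT4G12490 and 1.48 for LTP3, where 0.983% of the 20650 genes that reached 1 FPKM somewhere had a value of 1 or more. It was 0.85 for AT4G12520, 0.61 for AT4G12545 and 0.24 for EARLI1, and -0.09 for AZI1, 0.08 for AT4G12500 and -0.41 for AT4G12510. With 1 library in each of the 4 cells this difference could not be tested.

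**Figure D3:**
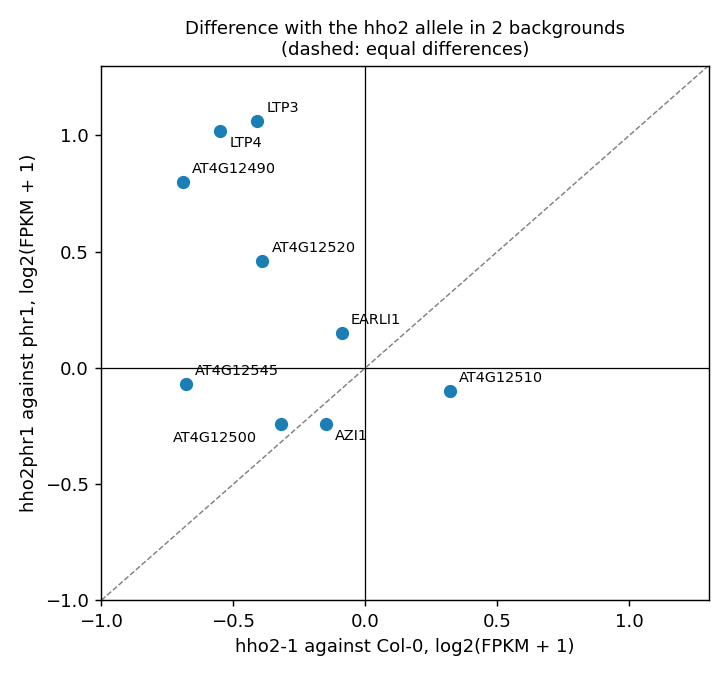
Difference with the hho2 allele in log2(FPKM + 1), beside intact PHR1 (horizontal axis) and in phr1 (vertical axis), 1 point per gene; the dashed line marks equal differences. LTP3, LTP4 and AT4G12490 lie in the upper left, at -0.41 and 1.06, -0.55 and 1.02, and -0.69 and 0.80.

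Along chromosome 4 the differences in log2(FPKM + 1) were largest at the third gene of the row, AT4G12490. That scale understates the low AT4G12500 next to it, which had about 6 estimated fragments in hho2-1. On FPKM the ratios of AT4G12490 and AT4G12500 were 10.2 and 6.07 in hho2phr1 against hho2-1. They were 3.23 and 3.40 in phr1 against Col-0. In hho2phr1 against hho2-1 the log2 differences ran from 0.26 at AZI1 through 1.05 at EARLI1 to 3.05 at AT4G12490. After it came 0.97, 0.00 and 0.27 at AT4G12500, AT4G12510 and AT4G12520. The 12 neighbours comprised 2 genes inside the cluster and 5 on each side of it. Of these, 10 could be compared and 0 were 2-fold different, which is near the share of all genes (1.27% higher, 0.719% lower). Their values lay between -0.38 and 0.88. The highest was AIR1, named for its induction by auxin in root cultures and a relative of the cluster's genes. It was at 72.8 FPKM in Col-0, 36.7 in hho2-1, 97 in phr1 and 68.6 in hho2phr1. In phr1 against Col-0 the 9 neighbours compared lay between -0.84 and 0.41, also with 0 of them 2-fold different (0.773% of all genes higher, 0.576% lower).

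**Figure D4:**
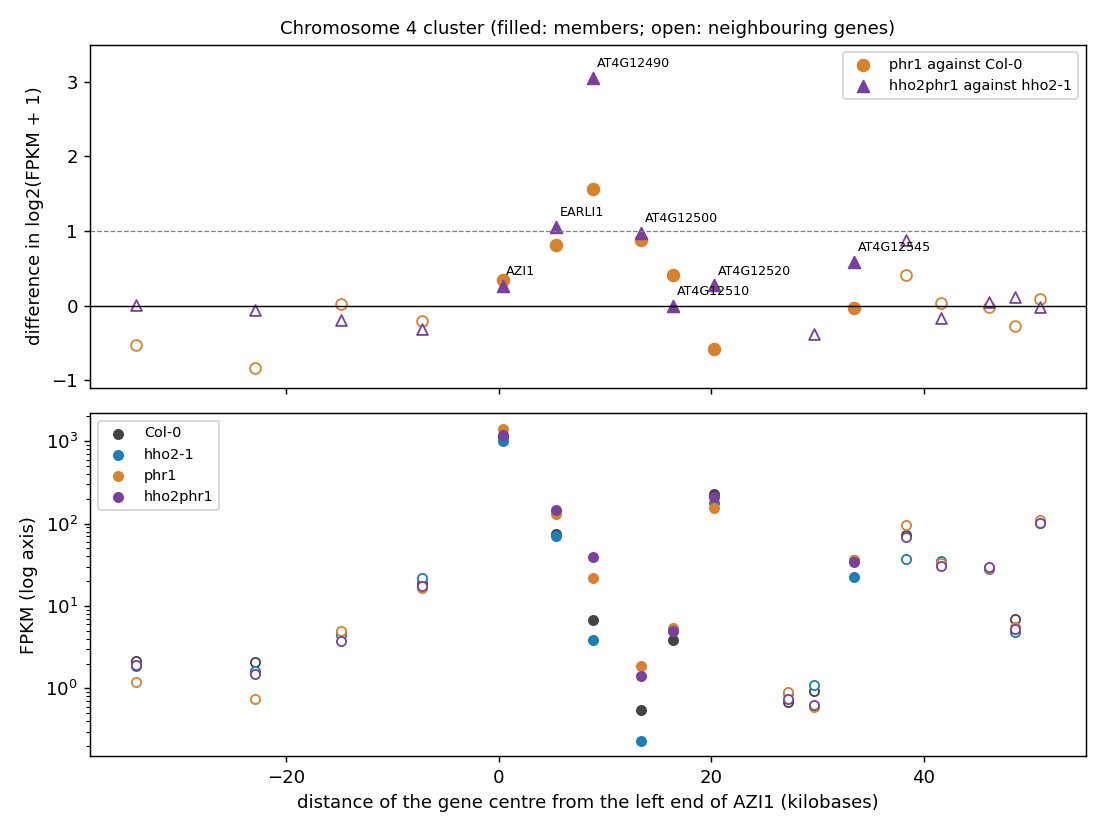
Genes of the chromosome 4 cluster (filled) and their neighbours (open) by distance of their centre from the left end of AZI1 in kilobases; above, differences in log2(FPKM + 1) for the phr1 allele in 2 backgrounds, below, FPKM on a log axis in the 4 genotypes (a gene at 0 is not drawn). On the log2(FPKM + 1) scale, which understates the low AT4G12500, AT4G12490 stands out above at 1.56 and 3.05. AZI1 stands out below at 999 to 1410 FPKM.

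The sequence ahead of the genes was read for motifs in the 250 bases before the RefSeq gene start of 8 members. Promoters are shown for LTP3, LTP4 and EARLI1, which differed between libraries, and for AZI1, the abundant member that differed little. Capitals mark the letters of TTGAC (W box core, bound by WRKY factors), ACGTG (core of the abscisic acid element) and GAATC (a motif of HHO factors), each searched on both strands.
LTP3, chr5:23928704-23928953, plus strand: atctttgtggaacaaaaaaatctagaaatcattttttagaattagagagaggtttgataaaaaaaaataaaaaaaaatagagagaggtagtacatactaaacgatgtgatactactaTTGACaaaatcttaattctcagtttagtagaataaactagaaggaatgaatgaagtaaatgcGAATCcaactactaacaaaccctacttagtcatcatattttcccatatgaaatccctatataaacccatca
LTP4, chr5:23925958-23926207, minus strand: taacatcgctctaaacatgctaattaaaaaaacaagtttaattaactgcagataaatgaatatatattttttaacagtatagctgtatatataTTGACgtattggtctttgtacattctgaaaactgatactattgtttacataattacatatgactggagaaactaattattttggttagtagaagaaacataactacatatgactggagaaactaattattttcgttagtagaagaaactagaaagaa
AZI1, chr4:7401952-7402201, minus strand: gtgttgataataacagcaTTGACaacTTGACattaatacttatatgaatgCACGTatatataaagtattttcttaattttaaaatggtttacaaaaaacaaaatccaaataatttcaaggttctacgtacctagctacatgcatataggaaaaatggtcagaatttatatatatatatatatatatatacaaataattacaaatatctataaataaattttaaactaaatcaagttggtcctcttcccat
EARLI1, chr4:7406995-7407244, minus strand: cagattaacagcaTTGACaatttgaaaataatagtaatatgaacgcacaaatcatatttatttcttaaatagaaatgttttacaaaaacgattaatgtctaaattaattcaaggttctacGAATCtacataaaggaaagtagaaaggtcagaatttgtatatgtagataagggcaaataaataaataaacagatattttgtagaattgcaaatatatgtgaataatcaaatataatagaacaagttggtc

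TTGAC was present in 6 of the 8 promoters, those shown among them, and in 45.0% of 26682 promoters of the same length. In AZI1 it occurred at 232 and 224 bases before the start. GAATC was in LTP3, EARLI1 and AT4G12500 (38.7% of all promoters), and ACGTG in AZI1 and AT4G12500 (23.1%). The PHR1 element GNATATNC was in AT4G12545 alone, 42 bases before its start, and in 5.44% of all promoters. GAATATTC, another motif of HHO factors, was in 0 of 8 and in 0.862% of all, and CCGAC, the core of the drought and cold element, in 0 of 8 and in 11.9%. No match overlapped one of another motif. A match is a description of these letters, and the window does not show whether a factor binds.

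Other families of lipid transfer proteins are described beside the members, which were chosen with their differences known, so the 2 are not a fair contrast. Among the other 10 type 1 genes, 7 could be compared, and 0 were 2-fold different in any of the 5 comparisons. LTP2, a type 1 protein of the cuticle, was at 475 FPKM in Col-0, 386 in hho2-1, 696 in phr1 and 389 in hho2phr1. The median of the list was 0.27 in phr1 against Col-0 and 0.09 in hho2phr1 against hho2-1. Of 16 other hybrid proline-rich or related 8-cysteine genes, AIR1 among them, and of 9 genes for lipid transfer proteins with a membrane anchor, 0 were 2-fold different in any comparison. In hho2phr1 against hho2-1 their medians were 0.05 and -0.07. Over the 5 comparisons, with each direction taken alone, between 0.418% and 1.27% of all genes were called. Both directions together hold a larger share. A count of 0 in lists this short is near these shares.

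Genes of systemic acquired resistance were compared because AZI1 acts there. Of 28, 27 could be compared, and 1 was 2-fold different: PR1, a marker of salicylate signalling, at 20.8 FPKM in Col-0, 10.5 in hho2-1, 111 in phr1 and 157 in hho2phr1. PR1 was called higher in phr1 against Col-0 (0.773% of all genes), hho2phr1 against hho2-1 (1.27%) and hho2phr1 against Col-0 (1.26%). Its order over the genotypes was that of LTP3 and LTP4. Some genes of the list below the 2-fold size, SARD1 and CBP60G among them, had that order too, while BGL2 and PR5 did not. SARD1 was at 3.68 FPKM in Col-0, 3.44 in hho2-1, 4.26 in phr1 and 7.41 in hho2phr1. CBP60G was at 9.76 FPKM in Col-0, 7.38 in hho2-1, 10.8 in phr1 and 13.6 in hho2phr1. BGL2 was at 9.16 FPKM in Col-0, 7.49 in hho2-1, 6.20 in phr1 and 12.9 in hho2phr1. PR5 was at 8.74 FPKM in Col-0, 5.93 in hho2-1, 8.35 in phr1 and 6.84 in hho2phr1. DIR1, a lipid transfer protein that acts with AZI1 in long-distance signalling, was at 44.3 FPKM in Col-0, 36.4 in hho2-1, 49.6 in phr1 and 44.1 in hho2phr1. The list's median was 0.05 in phr1 against Col-0 and 0.20 in hho2phr1 against hho2-1, with 15 and 21 of 27 genes above 0.

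Among 18 genes of abscisic acid, drought and cold, CBF2, a cold-response factor, was at -1.54 in hho2-1 against Col-0, and COR15A, a chloroplast protein of cold hardening, was at 1.23 in hho2phr1 against phr1. COR15A, at 3.03 FPKM in hho2phr1 against 0.793 in Col-0, was also the 1 gene of the list called in hho2phr1 against Col-0. In phr1 against Col-0 and in hho2phr1 against hho2-1, 0 of 16 were 2-fold different, with medians of -0.09 and -0.03. Of all genes, 0.773% and 1.27% were called higher there and 0.576% and 0.719% lower. In each of these comparisons 7 of the 16 genes were above 0. Below the 2-fold size, NCED3 and KIN2 had the order of LTP3 and LTP4, which other genes of the list did not share. NCED3 was at 3.40 FPKM in Col-0, 2.35 in hho2-1, 4.24 in phr1 and 5.58 in hho2phr1. KIN2 was at 65.6 FPKM in Col-0, 47.2 in hho2-1, 71.2 in phr1 and 85.2 in hho2phr1. MYB96, a factor known to act upstream of LTP3 in Arabidopsis, was at 16.3 FPKM in Col-0, 12.8 in hho2-1, 14 in phr1 and 10.8 in hho2phr1.

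Some markers of tissue moved between libraries too. All 7 epidermis markers were below Col-0 in hho2phr1, and their sum was 601 FPKM in Col-0, 600.2 in hho2-1, 527 in phr1 and 513 in hho2phr1. The sum of the green shoot markers was 10478 FPKM in Col-0, 10362 in hho2-1, 9748 in phr1 and 12653 in hho2phr1. Within it CAB2, a light-harvesting protein, was at 1.46 in hho2phr1 against phr1. Seed transcripts were high with the hho2 allele, at a sum of 65.7 FPKM in hho2-1 and 91.9 in hho2phr1 against 14.9 in Col-0 and 3.53 in phr1. Of the 9 seed markers, 4 were at 1 FPKM or more in Col-0, 5 in hho2-1, 2 in phr1 and 6 in hho2phr1. CRU2, a seed storage protein, was near 0 throughout, at 0.0146 FPKM in Col-0 and 0 in each mutant. SESA4, a low marker of the same list, went the other way. It was at 0.559 FPKM in Col-0, 0.276 in hho2-1, 0.523 in phr1 and 0.152 in hho2phr1. In hho2phr1 against phr1 the storage protein genes CRU3 and CRA1 were at 4.35 and 4.05, and the oil body genes OLEO2 and OLEO1 at 2.39 and 2.10. Of these sums only that of the epidermis markers, which were lower, separated both libraries with the phr1 allele from the other 2. Their part in the levels of the lipid transfer genes was not tested.

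The genes most like LTP3 and LTP4 over the 4 libraries were sought by the distance between profiles of log2(FPKM + 1), each centred on its own mean, among 20641 genes. The closest was AT5G44306, at a distance of 0.0791, with 2.46 FPKM in Col-0, 1.32 in hho2-1, 7.49 in phr1 and 16 in hho2phr1. The next were AT4G12735, AT2G04070, AT2G41730 and AT5G13210, at distances from 0.472 to 0.510. For the mean profile of the 7 chromosome 4 members the closest were BGAL7, AT2G07696, AT5G19240, BAP2 and AT2G30550, at 0.0341 to 0.0770. That profile was flatter, from -0.49 in hho2-1 to 0.40 in hho2phr1, against -1.29 to 1.57 for LTP3 and LTP4, so many genes with small differences lie near it.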

How the data were processed

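Poly(A)+ RNA was sequenced from 4 libraries, 1 per genotype. The submitters' processing notes name TopHat2 2.0.11, Cuffdiff 2.2.1 and the TAIR10 build. The deposited values are FPKM with a 95% interval in FPKM, per the file headers. The annotation release, the use of strand, the treatment of multiply aligned reads, the scaling between libraries and the spread behind the interval are not given in the sources used here.

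Differences in log2(FPKM + 1) were computed with pandas 2.3.3 in Python 3.11.15 for genes whose FPKM reached 1 in 1 or both libraries, and 2-fold was a difference of at least 1. The code that makes the calls was tested on simulated data. That step checks the code only, and no difference between genotypes was tested. Library sizes were estimated from 101 to 124 low values per library on single-exon genes longer than 500 bases, where FPKM times length less 204 bases steps by whole fragments. All of them came out within 0.1 of a whole number. This is the size behind the FPKM, not a read total, and estimated fragments of each gene follow from it.

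Of 33278 nuclear genes in the table, 32810 were in the TAIR10.1 annotation, and 32809 of these overlapped their counterpart, so sequences and gene models were read from TAIR10.1 (RefSeq) and aligned with Biopython 1.88. Printed gene coordinates are those of TAIR10.1. The promoter of 1 member is not reported here.

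The members and lists were chosen with earlier results of these data known. Every member was named. Of the 9 other lists, with 113 genes, up to 4 genes of 2-fold difference each were named. LTP2, AIR1, DIR1, BGL2, PR5, SARD1, CBP60G, NCED3, KIN2, MYB96, CRU2 and SESA4 were named beyond that rule, for their role, level or order, after values were seen. Alternatives were other pseudocounts, no filter, other scalings and intervals apart.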

Additional observations from a re-analysis of the deposited data

Results flagged for a closer look

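LTP3, LTP4 and AT4G12490 had differences with the hho2 allele of opposite sign in the 2 backgrounds that together came to at least 2-fold. For LTP4 the difference of differences was 1.57, for AT4G12490 it was 1.49 and for LTP3 it was 1.48. In each case hho2-1 was below Col-0 with overlapping intervals, and hho2phr1 was above phr1 with intervals apart. The lower level in hho2-1 is therefore the less certain part of the opposite sign. There was 1 library per genotype, and the difference was not tested.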

How the results depend on the processing

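Of 85 recomputed counts and medians, 84 stayed within the limits set, which for medians were as wide as the authors' intervals make a typical member's difference. The exception was the number of members 2-fold higher in hho2phr1 against phr1, which was 2 with a pseudocount of 1 and 0 with a pseudocount of 5. Medians within the limits still shrank with a pseudocount of 5. The median went from 0.81 to 0.34 in phr1 against Col-0 and from 0.97 to 0.51 in hho2phr1 against hho2-1. It went from 0.64 to 0.21 in hho2phr1 against Col-0 and from -0.40 to -0.23 in hho2-1 against Col-0, and stayed at 0.15 in hho2phr1 against phr1. The medians of 0.64 and 0.21 are the values of AT4G12500. That gene entered the comparison with Col-0 through hho2phr1, the library in which it was higher. In hho2phr1 against hho2-1 the count was 4, but 3 with libraries scaled to equal sums without the most abundant gene, where EARLI1 was at 0.97 in place of 1.05. With a pseudocount of 0.1, AT4G12500 was called as well, at 1.60 in phr1 against Col-0, 2.19 in hho2phr1 against hho2-1 and 1.23 in hho2phr1 against Col-0. Of 220 recomputed values of single members, 212 stayed within the width that the authors' intervals give the difference, 8 did not and 0 of those called changed sign. The 8 came with another pseudocount, which acts by construction on low values: LTP4 in hho2phr1 against hho2-1 was at 4.10 with 0.1 and at 2.10 with 5. Under the scalings between libraries, the median of all genes farthest from 0 was -0.068, in hho2phr1 against hho2-1. Factors of the median-ratio scaling lay between 0.9992 and 1.001, and dropping the filter cannot change a single member's value, so these settings test little. No paired analysis was possible because each genotype has 1 library, and for the same reason no library could be left out. Depth limits AT4G12500 most, with about 6 estimated fragments in hho2-1.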

Other observations

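Among the lipid transfer proteins with a membrane anchor, AT3G22600 was chosen after its values were seen. It was at 85.3 FPKM in Col-0, 83.5 in hho2-1, 126 in phr1 and 159 in hho2phr1, the order over phr1 and hho2phr1 that EARLI1 also had.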
